A study of Mus musculus with 4 samples.

Results

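The 38 genes described here act in DNA replication, chromosome condensation, mitosis and cytokinesis, and were taken by gene symbol from the 32286 features of a single-nucleus RNA data set of mouse brain. All 38 symbols were found. The nuclei came from snap-frozen hemispheres of C57BL/6 mice at postnatal day 14, and the libraries were made with the 3′ v3 kit of 10x Genomics, which counts each RNA molecule once by a molecular identifier (UMI). The KO group was Slc17a6-Cre, Ago2 flox/flox, and the WT group was Slc17a6-Cre, Ago2 wt/wt, so both carried the Cre. Each group had 2 libraries. Slc17a6 encodes the vesicular glutamate transporter VGLUT2, so the Cre is driven in neurons that express VGLUT2. Whether the Cre also acted in the glia described below was not tested. Ago2 is an Argonaute protein that holds microRNAs. Nothing in the labels says that libraries of 1 genotype are from different animals, so a p below reflects spread among libraries that may be technical. How the libraries were batched in preparation was not analysed here, and preparation cannot be told apart from genotype.

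Cells that divide copy their DNA in S phase, condense and separate the chromosomes in mitosis, and cut the cell apart in cytokinesis. Many genes of the later steps are transcribed in a burst in G2 and M phase and are close to silent in resting cells, so transcripts of several of them in 1 nucleus are commonly read as a mark of division. In the postnatal mouse brain the main dividing populations include oligodendrocyte precursor cells (OPC), which keep dividing while they supply the myelinating oligodendrocytes, and the granule neuron precursors of the cerebellum, which divide on its surface before they move inward.

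The promoters of the members are shown first, because a short element recurs in them. The cell cycle genes homology region (CHR), TTTGAA, is bound by repressor and activator complexes that time G2 and M phase transcription. RefSeq windows of 300 bases, 250 before and 50 after the start, were matched for 35 of the 38 members. TTTGAA, searched on both strands, stood in 22 of the 35 windows (62.9%), and in 4893 of 27025 windows of all genes (18.1%). The CCAAT box stood in 27 of the 35 (77.1%), against 37.9% of all windows. The E2F element of early, S phase genes, TTTGGCGC, stood in 5 of the 35 (14.3%), against 0.537% of all windows, and these were Kif15, Mcm3, Mcm5, Mcm6 and Pola1. Of the 6 members that passed the test in OPC below, Knl1, Top2a, Kif4, Cdca8 and Prc1 held TTTGAA and Cenpe did not. These 5 windows and that of Pola1, an S phase gene whose level overlapped between genotypes, are printed from RefSeq (GRCm38.p6), 5′ to 3′ on the gene's strand. Capitals mark TTTGAA on either strand, and in Pola1 the E2F element on the other strand. A match in a window is a description and not a binding site.
Knl1 (chr2:119046869-119047168, plus strand): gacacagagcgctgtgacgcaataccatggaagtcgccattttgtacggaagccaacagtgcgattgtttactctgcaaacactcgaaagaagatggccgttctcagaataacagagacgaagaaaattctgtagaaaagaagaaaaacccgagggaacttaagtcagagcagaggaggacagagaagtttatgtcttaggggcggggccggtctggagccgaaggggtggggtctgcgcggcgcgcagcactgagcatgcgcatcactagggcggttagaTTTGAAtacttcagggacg
Top2a (chr11:99024140-99024439, minus strand): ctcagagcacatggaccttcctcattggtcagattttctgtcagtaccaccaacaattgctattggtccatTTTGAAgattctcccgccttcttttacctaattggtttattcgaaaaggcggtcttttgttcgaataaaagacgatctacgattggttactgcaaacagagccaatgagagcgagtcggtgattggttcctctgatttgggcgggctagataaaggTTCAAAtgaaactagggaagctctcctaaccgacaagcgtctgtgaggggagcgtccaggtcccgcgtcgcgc
Kif4 (chrX:100625815-100626114, plus strand): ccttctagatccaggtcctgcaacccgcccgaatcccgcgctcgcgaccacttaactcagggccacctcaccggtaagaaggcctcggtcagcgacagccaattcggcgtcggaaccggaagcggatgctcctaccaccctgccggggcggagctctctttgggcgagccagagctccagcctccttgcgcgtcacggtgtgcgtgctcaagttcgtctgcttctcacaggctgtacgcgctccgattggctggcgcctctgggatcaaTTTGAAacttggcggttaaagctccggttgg
Cdca8 (chr4:124936868-124937167, minus strand): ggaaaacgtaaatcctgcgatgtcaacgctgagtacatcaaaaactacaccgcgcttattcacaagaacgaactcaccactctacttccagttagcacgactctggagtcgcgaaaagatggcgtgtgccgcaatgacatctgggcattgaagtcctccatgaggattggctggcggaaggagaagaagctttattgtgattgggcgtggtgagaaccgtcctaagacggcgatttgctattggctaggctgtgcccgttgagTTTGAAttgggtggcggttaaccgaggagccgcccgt
Prc1 (chr7:80294201-80294500, plus strand): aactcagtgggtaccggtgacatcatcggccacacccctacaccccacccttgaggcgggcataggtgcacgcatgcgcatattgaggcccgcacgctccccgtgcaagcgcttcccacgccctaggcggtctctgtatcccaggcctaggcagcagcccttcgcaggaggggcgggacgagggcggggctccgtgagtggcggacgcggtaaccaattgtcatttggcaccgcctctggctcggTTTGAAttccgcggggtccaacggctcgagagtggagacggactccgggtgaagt
Pola1 (chrX:93632106-93632405, minus strand): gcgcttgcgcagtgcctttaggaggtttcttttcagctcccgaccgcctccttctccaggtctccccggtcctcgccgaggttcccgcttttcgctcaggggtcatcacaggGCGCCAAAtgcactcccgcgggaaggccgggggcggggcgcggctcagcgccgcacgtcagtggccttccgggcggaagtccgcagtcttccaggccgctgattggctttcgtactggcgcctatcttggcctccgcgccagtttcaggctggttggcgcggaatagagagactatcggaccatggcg

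The libraries held 10845009 and 11439733 UMIs in KO replicates 1 and 2, and 13107920 and 29317266 UMIs in WT replicates 1 and 2. After filtering, 3221 and 3168 KO nuclei and 3235 and 5826 WT nuclei were kept, with medians of 2315 and 2377 UMIs in KO and 2407 and 3086 UMIs in WT, so WT replicate 2 was the largest and deepest library. Ago2, the targeted gene, was not lower in the libraries labelled KO: in glutamatergic nuclei it stood at 105 and 101 CPM (a gene's UMIs scaled to a common total of UMIs per class and library) in KO and 73.2 and 79.2 CPM in WT. The labels do not name the floxed exons, and 3′ counts may lie outside the deleted part, so KO and WT below mean the libraries so labelled. The feature named CRE had 0 UMIs in every library. Slc17a6, the driver gene, had 13.8 and 4.91 CPM in KO and 7.02 and 7.39 CPM in WT in OPC nuclei. In glutamatergic nuclei it had 20.2 and 18.3 CPM in KO and 17.5 and 10.5 CPM in WT. Of the barcodes kept, 29 occurred in more than 1 library. Classes of nuclei were formed by clustering without the members and other cell cycle genes and were named from marker lists. OPC nuclei held the 13 OPC markers at a summed 19224 and 22311 CPM in KO and 20797 and 21021 CPM in WT. Of the 16 granule lineage markers, Atoh1, Barhl1 and Nhlh1 were at 0 there. The 16 summed to 677 and 714 CPM in KO OPC nuclei and 627 and 667 CPM in WT OPC nuclei. The granule lineage held its own 16 markers at 7959 and 8220 CPM in KO and 8028 and 7159 CPM in WT, but Atoh1, which marks dividing granule precursors, was at 0 in it.

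Summed over the 38 members, OPC nuclei stood at 492 and 481 CPM in KO and at 1022 and 1651 CPM in WT, or 486 ± 8.09 CPM in KO and 1337 ± 445 CPM in WT (SD, n = 2 each). Both KO libraries were below both WT libraries, and the WT libraries lay far apart from each other. An exact permutation test, two-sided, of 2 against 2 libraries cannot give a p below 0.333, so this sum cannot pass a threshold of 0.05 by that test. OPC made up 4.10% and 5.33% of the nuclei in KO and 5.19% and 5.10% in WT, 132 and 169 against 168 and 297 nuclei. In the granule lineage the summed level was 351 and 311 CPM in KO and 259 and 274 CPM in WT. In the plot of summed levels by class, astrocytes held 445 and 348 CPM in KO and 340 and 330 CPM in WT. Glutamatergic nuclei, which no longer divide, held 226 and 215 CPM in KO and 181 and 178 CPM in WT. Over all nuclei the sum was 316 and 319 CPM in KO and 307 and 309 CPM in WT.

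**Figure D1:**
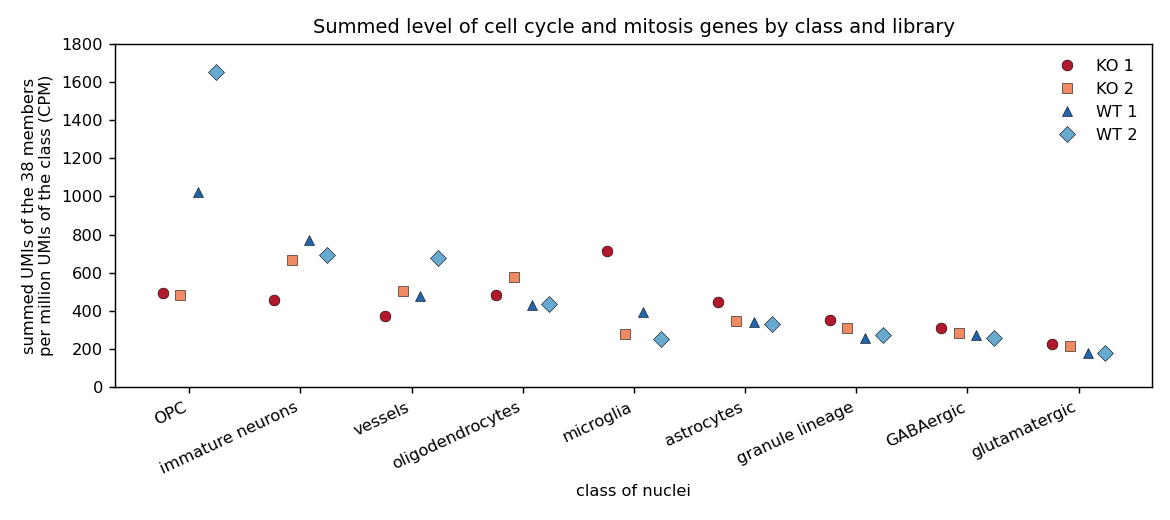
Summed level of the 38 members (y axis, CPM) in each class of nuclei (x axis), with 1 point per library, KO left of WT. In OPC the KO points are at 492 and 481 CPM and the WT points at 1022 and 1651 CPM, while in the granule lineage the KO points, 351 and 311 CPM, are above the WT points, 259 and 274 CPM.

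In OPC nuclei, 6 members were lower in KO and none was higher (edgeR quasi-likelihood test, adjusted p under 0.05). They were Knl1, Cenpe and Cdca8 of the kinetochore and its checkpoint, Kif4 and Prc1 of the spindle, and Top2a of chromosome structure. Over all 6110 genes tested in OPC, 20 were lower in KO, 0.327% of them, and 0.115% were higher. Of the 38 members, 17 passed the filter on low counts and were tested, and 21 did not. The called members Knl1, Cenpe, Cdca8, Kif4 and Prc1 had few UMIs in KO and passed this filter through the WT libraries. A member that passes in that way could hardly be called higher in KO, so the lack of higher calls is not a separate result. All 38 had UMIs in OPC: both KO libraries were below both WT libraries for 26 of 38, against 17.4% of all genes with a UMI there, 11 overlapped, and Mcm5 alone was above in KO, with 3 UMIs in all, against 13% of all genes with a UMI. When WT replicate 2 was left out, 0 members passed, and 10 passed without WT replicate 1. DESeq2 called 0 members, and only 1 gene in OPC at all. Keeping cell cycle genes among the clustering genes and clustering more finely both gave the same OPC class of 772 nuclei, 6 more than the 766 used here, and in it 0 members passed. The sizes hardly moved there: Top2a was at -1.89 (edgeR adjusted p = 0.0573), Knl1 at -2.80 (0.0523) and Kif4 at -3.24 (0.0523) on the log2 scale. Each of the 6 kept its negative sign wherever it was tested. The members were chosen with earlier results of these data known. Their counts beside the shares of all genes, here and below, are thus a description and not separate support.

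**Figure D2:**
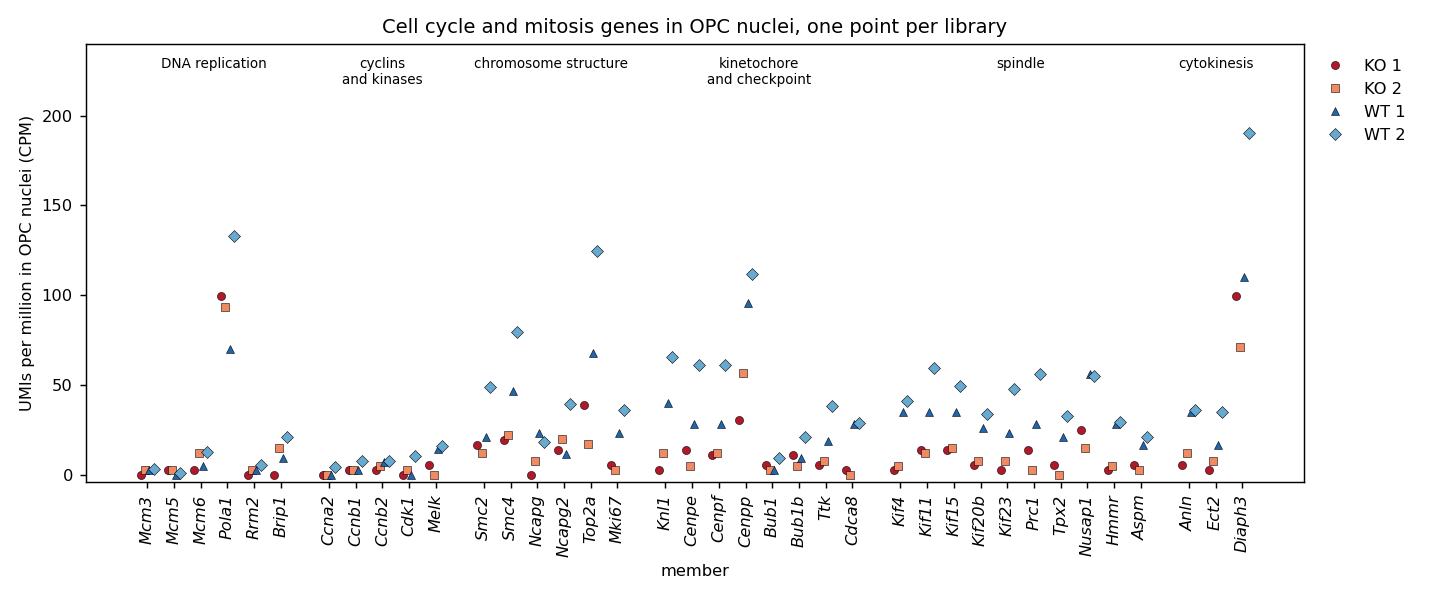
Level of each of the 38 members in OPC nuclei (y axis, CPM), grouped by role, with 1 point per library, KO left of WT. Both KO points lie under both WT points for 26 of the 38 members, and Pola1, at 99.5 and 93.2 CPM in KO and 70.2 and 133 CPM in WT, is among the 11 that overlap.

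Among the kinetochore and checkpoint genes, Knl1 (chr2:119047119-119105501, plus strand, GRCm38), the scaffold on which checkpoint proteins dock, had 1 and 5 UMIs in KO and 17 and 62 UMIs in WT. These are levels of 2.77 and 12.3 CPM in KO and 39.8 and 65.5 CPM in WT, a log2 change of -2.80 (SE 0.55, edgeR adjusted p = 0.0122). Both KO libraries were low and did not overlap the WT libraries. Cdca8 (chr4:124918465-124939311, minus strand), or borealin, a subunit of the chromosomal passenger complex, had 1 and 0 UMIs in KO and 12 and 27 UMIs in WT. From 1 against 39 UMIs, its ratio of KO over WT level was 0.0458, with an exact 95% interval of 0.00113 to 0.271, and its edgeR adjusted p was 0.0306. It was nearly missing from KO and stood at 28.1 and 28.5 CPM, close together, in the WT libraries. Cenpe (chr3:135212537-135273611, plus strand), the kinesin that carries chromosomes along kinetochore microtubules, had 13.8 and 4.91 CPM in KO and 28.1 and 61.3 CPM in WT, a log2 change of -2.39 (SE 0.56, edgeR adjusted p = 0.0411). The groups did not overlap, with WT replicate 2 the highest. Cenpp, a subunit of the inner kinetochore, had 30.4 and 56.4 CPM in KO and 95.9 and 112 CPM in WT, and lay just outside the threshold (log2 change -1.26, edgeR adjusted p = 0.0540). It spans 189 kb and overlaps 6 genes of the opposite strand. Cenpf, a large protein of the outer kinetochore, had 11.1 and 12.3 CPM in KO and 28.1 and 61.3 CPM in WT (edgeR adjusted p = 0.0679). The checkpoint kinases were sparse: Ttk had 2 and 3 UMIs in KO and 8 and 36 UMIs in WT and did not overlap, while Bub1, with 2 and 1 UMIs in KO and 1 and 9 UMIs in WT, and Bub1b, with 4 and 2 UMIs in KO and 4 and 20 UMIs in WT, did.

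Among the spindle genes, Kif4 (chrX:100625737-100727214, plus strand), a kinesin on chromosome arms, had 1 and 2 UMIs in KO and 15 and 39 UMIs in WT. The ratio of KO over WT level was 0.0992 (exact 95% interval 0.0198 to 0.306), and the edgeR adjusted p was 0.0143. In CPM the WT libraries were close, at 35.1 and 41.2, and the KO libraries were at 2.77 and 4.91. Prc1 (chr7:80294450-80316259, plus strand), which bundles the microtubules of the central spindle, had 13.8 and 2.45 CPM in KO and 28.1 and 56.0 CPM in WT, a log2 change of -2.51 (SE 0.59, edgeR adjusted p = 0.0441). It was the called member nearest to the threshold, and it overlaps 6330403N20Rik and Rccd1 on the opposite strand. The called members Kif4 and Cdca8 also overlap a gene of the opposite strand, Pdzd11 and 9930104L06Rik in that order. All 10 spindle genes had both KO libraries below both WT libraries, against 17.4% of all genes with a UMI. Most member UMIs of WT OPC sat in few nuclei, as given below, so the 10 are not separate observations. The motor Kif11, which pushes the spindle poles apart, had 13.8 and 12.3 CPM in KO and 35.1 and 59.2 CPM in WT (edgeR adjusted p = 0.0645). Hmmr, a spindle assembly factor, had 1 and 2 UMIs in KO and 12 and 28 UMIs in WT (edgeR adjusted p = 0.0702). Tpx2, an activator of Aurora A, was not tested and had 2 and 0 UMIs in KO and 9 and 31 UMIs in WT. The other 5, the kinesins Kif15, Kif20b and Kif23, the microtubule binder Nusap1 and the spindle pole protein Aspm, ran from 3 to 15 UMIs over both KO libraries and from 27 to 76 UMIs over both WT libraries.

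In chromosome structure, Top2a (chr11:98992943-99024189, minus strand), the topoisomerase that untangles sister chromatids, had 14 and 7 UMIs in KO and 29 and 118 UMIs in WT. Its level was 38.7 and 17.2 CPM in KO and 67.8 and 125 CPM in WT, a log2 change of -1.89 (SE 0.37, edgeR adjusted p = 0.0122). The groups did not overlap, though each was spread widely. Smc4, a core subunit of condensin, had 19.4 and 22.1 CPM in KO and 46.8 and 79.2 CPM in WT, just outside the threshold (log2 change -1.67, SE 0.41, edgeR adjusted p = 0.0545). Its partner Smc2 had 6 and 5 UMIs in KO and 9 and 46 UMIs in WT, and Ncapg of condensin I had 0 and 3 UMIs in KO and 10 and 17 UMIs in WT. Both were lower in each KO library than in each WT library, whereas Ncapg2 of condensin II overlapped. Mki67, the proliferation marker Ki-67 that coats mitotic chromosomes, had 2 and 1 UMIs in KO and 10 and 34 UMIs in WT, too few for the filter.

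In cytokinesis, none of the 3 members passed the test. Anln, the anillin that organises the contractile ring, had 5.53 and 12.3 CPM in KO and 35.1 and 35.9 CPM in WT (log2 change -1.95, SE 0.56, edgeR adjusted p = 0.153). Diaph3, a formin that builds actin filaments of the ring, had 99.5 and 71.1 CPM in KO and 110 and 190 CPM in WT (log2 change -0.89, SE 0.26, edgeR adjusted p = 0.177). The groups did not overlap for either gene. Ect2, the exchange factor that switches on RhoA at the division plane, had 1 and 3 UMIs in KO and 7 and 33 UMIs in WT.

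None of the 6 DNA replication genes had both KO libraries below both WT libraries, against 17.4% of all genes with a UMI. Pola1 (chrX:93304767-93632155, minus strand), the catalytic subunit of DNA polymerase alpha, was the only one tested. It had 36 and 38 UMIs in KO and 30 and 126 UMIs in WT, that is 99.5 and 93.2 CPM in KO and 70.2 and 133 CPM in WT. The log2 change was -0.17 (SE 0.27, edgeR adjusted p = 0.991), and the KO libraries fell between the WT libraries. The helicase subunits Mcm3, Mcm5 and Mcm6, the reductase subunit Rrm2 and the helicase Brip1 had 1 to 6 UMIs over both KO libraries and 1 to 24 UMIs over both WT libraries. Of the 6, all but Mcm5 had a summed KO level below the summed WT level, against 55.8% of all genes with a UMI. Most were too sparse to test, so these counts do not settle whether the replication genes differ from OPC genes at large. Among cyclins and kinases none was tested: Ccna2 had 0 UMIs in KO and 4 in WT, all in replicate 2, and Cdk1, the kinase that drives entry into mitosis, had 0 and 1 UMIs in KO and 0 and 10 UMIs in WT. The kinase Melk had 2 and 0 UMIs in KO and 6 and 15 UMIs in WT, and Ccnb1 and Ccnb2, the B-type cyclins, had 2 and 3 UMIs over KO and 8 and 10 over WT. At this depth no change in the cyclins was detectable.

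The ratio of the summed KO over the summed WT level was under 1 in OPC for 37 of the 38 members, against 55.8% of all genes with a UMI there. Its exact interval, which covers counting error only, lay wholly under 1 for 25 members, against 3.46% of all genes with a UMI, and wholly over 1 for 0, against 3.04%. The 13 others were the 6 replication genes, the 4 members Ccna2, Ccnb1, Ccnb2 and Cdk1, and Ncapg2, Bub1 and Bub1b. WT replicate 2 gave 1563 of the 2000 member UMIs of WT OPC, and most of these sat in few nuclei. The 25 are thus not separate observations. The background is also unlike the members: of 18576 genes with a UMI in OPC, 6110 passed the filter on low counts, and sparse genes can rarely exclude 1. In the granule lineage the interval lay wholly over 1 for Mki67, Prc1 and Diaph3, against 6.22% of all genes with a UMI in that class, and wholly under 1 for 0 members, against 6.06%.

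**Figure D3:**
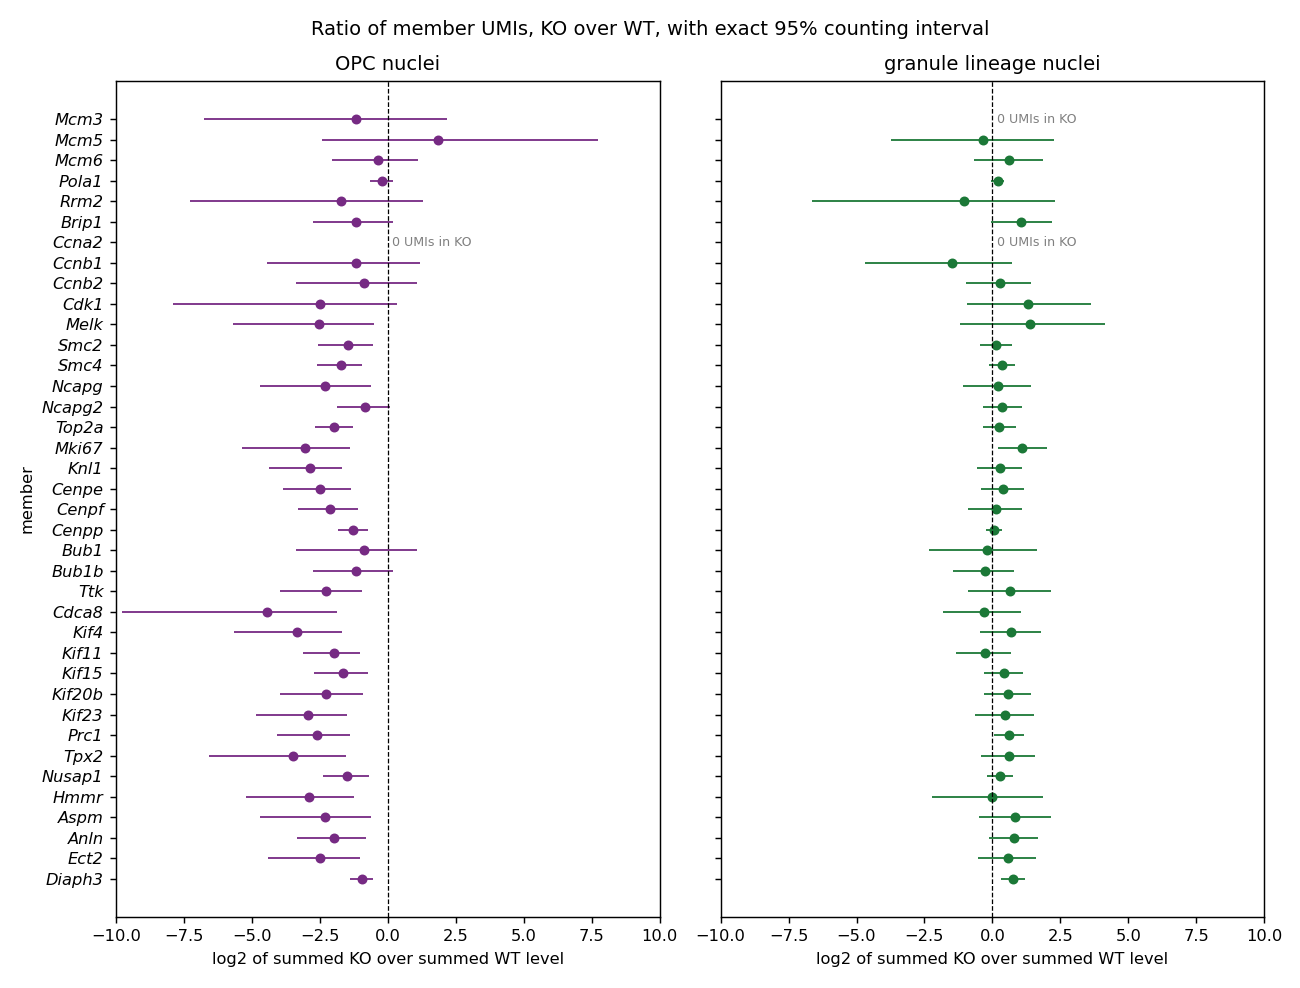
Ratio of the summed KO over the summed WT level of each member on a log2 scale (x axis), with its exact 95% interval for counting error, in OPC nuclei (left) and granule lineage nuclei (right). In OPC 25 intervals lie wholly under 0 on this scale and 0 wholly over it, and in the granule lineage 0 lie wholly under and 3 wholly over.

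Most of the member UMIs of WT OPC sat in few nuclei, and fewer than 50% did in KO. Nuclei with UMIs of at least 5 members numbered 2 and 4 in KO and 9 and 40 in WT, 1.52% and 2.37% of OPC nuclei in KO and 5.36% and 13.5% in WT. These nuclei carried 41.6% and 39.8% of the member UMIs in KO and 72.8% and 81.1% in WT. Within them the members stood at 8847 and 6522 CPM in KO and 11157 and 7560 CPM in WT, which overlapped. In the remaining OPC nuclei the members stood at 294 and 298 CPM in KO and 298 and 379 CPM in WT. Since member UMIs chose these nuclei, levels inside and outside them are a description with no test. The number 5 is a point on a range: 84 OPC nuclei had 2 members, 29 had 3 and 10 had 4. The highest number of members in 1 nucleus was 22 and 21 in KO and 28 and 28 in WT. The nuclei with at least 5 members held the OPC markers at 18943 CPM, against 21141 CPM in the other OPC nuclei, and granule lineage markers at 914 against 642 CPM. Their median depth was 3875 UMIs, against 2441 UMIs in the others.

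To compare libraries at 1 depth, each nucleus was thinned to 1000 UMIs, and nuclei with at least 3 members were counted. In OPC these were 3 of 131 and 5 of 162 nuclei in KO and 9 of 168 and 35 of 297 nuclei in WT. The shares were 2.29% (exact 95% interval 0.475% to 6.55%) and 3.09% (1.01% to 7.06%) in KO, and 5.36% (2.48% to 9.93%) and 11.8% (8.35% to 16%) in WT. The KO libraries were lower than the WT libraries, but the interval of WT replicate 1 overlapped both KO intervals. Thinning left out 1 and 7 OPC nuclei of KO and 0 of WT. Without thinning the shares were 5.30% and 5.33% in KO and 10.1% and 20.5% in WT, and those of the deeper glutamatergic nuclei were 4.78% and 6.45% in KO and 4.96% and 11.6% in WT. Unthinned, the KO OPC shares thus did not stand apart from a class that no longer divides. In glutamatergic nuclei, which should lack the genes, 0 of 417 and 0 of 341 thinned nuclei in KO and 0 of 401 and 0 of 794 in WT reached 3 members, although their median depth, 5708 UMIs over all libraries, exceeded that of OPC nuclei, 2499 UMIs. For nuclei with at least 1 member the thinned OPC shares were 31.3% and 27.8% in KO and 25.6% and 35.7% in WT and overlapped, and the glutamatergic shares were 18% and 18.8% in KO and 16.2% and 17.6% in WT. A single member was thus also common in nuclei that no longer divide.

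**Figure D4:**
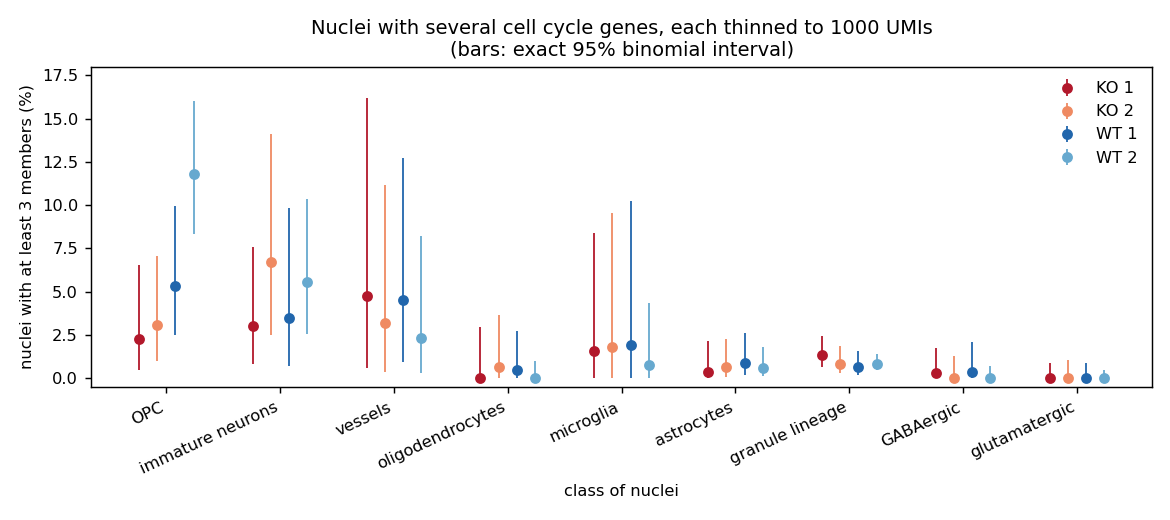
Share of nuclei with UMIs of at least 3 members after thinning each nucleus to 1000 UMIs (y axis, %), by class (x axis) and library, KO left of WT, with exact 95% binomial intervals. OPC of WT replicate 2 stand at 11.8%, the KO libraries at 2.29% and 3.09%, and all glutamatergic points lie at 0%.

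Members differed in how far their UMIs came from nuclei with several others. Since libraries differed in how many such nuclei they held, members are compared within WT replicate 2, the deepest. For the 27 members with at least 20 UMIs in its OPC nuclei, the share found in nuclei with at least 4 other members had a median of 91.2%. The share was 100% for Cdca8, 98.4% for Knl1 and 94.9% for Top2a. Diaph3 at 66.1% and Cenpp at 69.8% were low, and Pola1 was the lowest at 34.1%. In the other libraries the share of Pola1 was 16.7% and 15.8% in KO and 26.7% in WT replicate 1, so in every library most of its OPC UMIs lay outside the nuclei with several members. For Top2a it was 92.9% and 85.7% in KO, from 14 and 7 UMIs, and 86.2% in WT replicate 1. In glutamatergic nuclei the same share, over all libraries, was 2.46% for Pola1, which had 529 UMIs there, and 2.04% for Diaph3, which had 196. Diaph3 spans 486 kb, Pola1 327 kb and Cenpp 189 kb, against a median of 38.5 kb over the members.

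**Figure D5:**
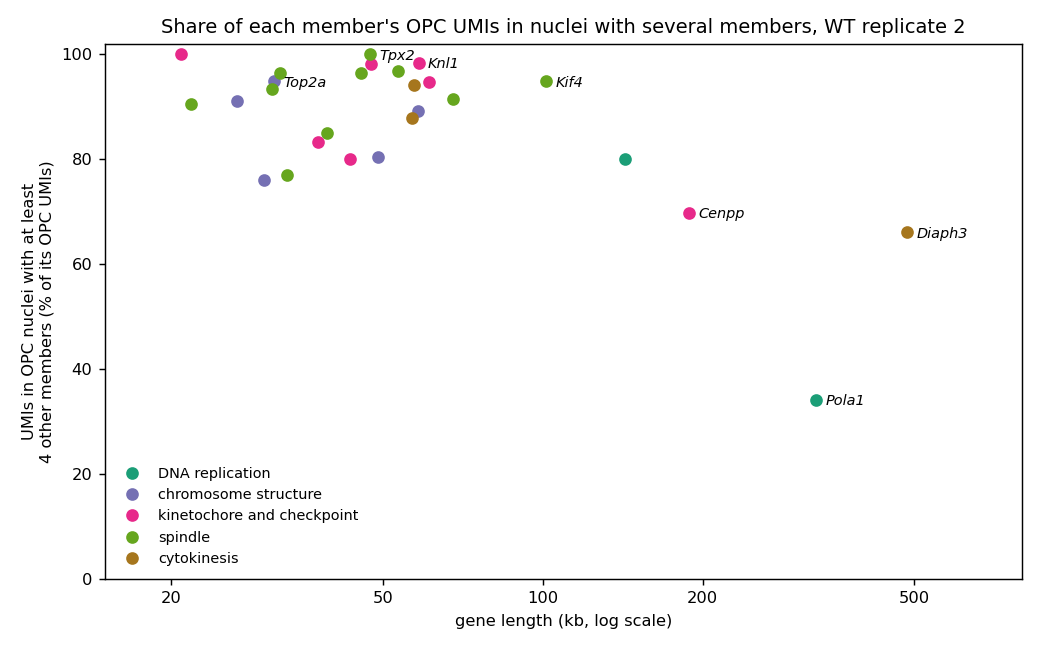
Share of each member's OPC UMIs in WT replicate 2 that lay in nuclei with at least 4 other members (y axis, %) against gene length (x axis, kb, log scale), for the 27 members with at least 20 UMIs there, coloured by role. Most members lie near the median of 91.2%, with Pola1 at 34.1%, Diaph3 at 66.1% and Cenpp at 69.8%.

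In the granule lineage, 0 members passed the test (edgeR quasi-likelihood), as did 0 of 10602 genes (0%), and DESeq2 called 0 members and 1 gene. At an unadjusted edgeR p under 0.05, 367 genes were lower and 291 higher in KO. Of the 13 members tested, 2 had an unadjusted edgeR p under 0.05, Diaph3 and Mki67, both higher in KO, a class in which 2.74% of genes passed that mark in this direction. Diaph3 had 27.0 and 21.8 CPM in KO and 17.7 and 13.6 CPM in WT (log2 change 0.71, SE 0.28, edgeR adjusted p = 0.716). Mki67 had 15 and 9 UMIs in KO and 6 and 16 UMIs in WT, or 8.44 and 6.31 CPM in KO and 3.66 and 3.45 CPM in WT (log2 change 1.08, SE 0.46, edgeR adjusted p = 0.764). For both genes the KO libraries stood above the WT libraries. Prc1 had 16.9 and 14.7 CPM in KO and 14.04 and 9.27 CPM in WT, and Nusap1, which binds spindle microtubules, had 19.7 and 18.2 CPM in KO and 15.3 and 15.7 CPM in WT. Smc4 had 20.3 and 18.2 CPM in KO and 17.7 and 14.2 CPM in WT, and Pola1 had 67.5 and 61.7 CPM in KO and 48.2 and 60.1 CPM in WT. These 4 did not overlap, while Smc2 (14.1 and 9.82 CPM in KO, 10.99 and 10.99 CPM in WT), Cenpp (41.7 and 61.7 CPM in KO, 52.5 and 47.0 CPM in WT) and Cenpe (10.1 and 4.21 CPM in KO, 6.71 and 5.39 CPM in WT) did. Over all 38 members, 11 had both KO libraries above both WT libraries, against 12.7% of all genes with a UMI in the class, and 2 had both below, against 17.1%.

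Few granule lineage nuclei held several members. After thinning to 1000 UMIs, 11 of 809 and 6 of 701 nuclei in KO and 5 of 744 and 15 of 1781 nuclei in WT had at least 3 members. The shares were 1.36% and 0.856% in KO and 0.672% and 0.842% in WT, with intervals that overlapped throughout. Unthinned, nuclei with at least 5 members numbered 9 and 5 in KO and 6 and 16 in WT, and they carried 30.6% and 22.8% of the member UMIs in KO and 20.9% and 20.8% in WT. Outside them the members stood at 246 and 242 CPM in KO and 210 and 219 CPM in WT, again as a description.

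The difference in genotype effect between OPC and another class was tested in 1 fit with the library as a block, so that each library's OPC are set against its own nuclei of the other class. Against the granule lineage, 30 members were tested and 3 passed, against 0.0918% of 10893 genes, with the KO over WT change lower in OPC: Prc1 at -3.09 (SE 0.65, edgeR adjusted p = 0.0229), Diaph3 at -1.62 (SE 0.36, edgeR adjusted p = 0.0357) and Mki67 at -4.03 (SE 0.89, edgeR adjusted p = 0.0379), all on the log2 scale. Against astrocytes, 28 members were tested and 4 passed, against 0.295% of 9482 genes. These were Knl1 at -4.35 (edgeR adjusted p = 0.000684), Smc4 at -2.41 (0.00238), Prc1 at -3.34 (0.0206) and Cenpf at -4.45 (0.0454). For Knl1, Smc4 and Cenpf the KO libraries were above the WT libraries in astrocytes, so both classes enter these differences. For Prc1, Diaph3 and Mki67 the KO libraries were likewise above the WT libraries in the granule lineage, so both classes enter the differences against it too. Both comparisons use the same OPC counts. The filter on low counts was applied to both classes of a comparison together. Mki67, with 2 and 1 UMIs in KO OPC, did not pass it in OPC alone. Knl1, Prc1 and Cenpf did not pass it in astrocytes alone. Of the 3 differences against the granule lineage, 0 remained without WT replicate 2, 0 without KO replicate 2 and 1 without KO replicate 1. Of the 4 against astrocytes, 0 remained without WT replicate 2, 0 without KO replicate 1, and 2 each without WT replicate 1 and without KO replicate 2.

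Other glia and vessels showed no called member (edgeR quasi-likelihood, and DESeq2 likewise 0 in each class). In astrocytes, where 0.1% of 8983 genes passed, 8 members were tested and Smc4 alone had an unadjusted p under 0.05, as 3.8% of genes did in this direction, with 46.2 and 30.3 CPM in KO and 23.2 and 21.0 CPM in WT (log2 change 0.79, SE 0.34, edgeR adjusted p = 0.580). It was higher in both KO libraries, the reverse of its order in OPC. Knl1, too sparse for the filter, had 9 and 8 UMIs in KO and 3 and 6 UMIs in WT astrocytes, a ratio of KO over WT level of 3.03 (exact 95% interval 1.28 to 7.71). Cenpf had 5 and 3 UMIs in KO and 0 and 2 UMIs in WT there, a ratio of 6.41 (1.28 to 62.0). In oligodendrocytes, with 0.0864% of 6943 genes called, 5 members were tested and none had an unadjusted p under 0.05. Anln, which in these cells scaffolds the septins of myelin, had 122 and 170 CPM in KO and 104 and 105 CPM in WT there (log2 change 0.46, SE 0.23, edgeR adjusted p = 0.870). In microglia 1 member, Pola1, was tested and 0 of 3572 genes (0%) passed (edgeR, with 96 lower and 127 higher at an unadjusted p under 0.05, and DESeq2 0). Vessels, that is endothelial and mural nuclei, had 2 members tested and 0.0206% of 4863 genes called. There the summed KO level was below WT for 25 of 35 members with a UMI, against 54.2% of such genes. The exact interval lay wholly under 1 for Cenpf and Cenpp, against 3.03%, and wholly over 1 for 0, against 3.55%. Nuclei with at least 5 members were 2 and 2 in KO (4.08% and 2.63%) and 6 and 5 in WT (5.71% and 5.56%). Thinned to 1000 UMIs, the shares with at least 3 members overlapped. The Cenpp level of vessels was 25.9 and 60.9 CPM in KO and 137 and 63.0 CPM in WT (log2 change -1.07, edgeR adjusted p = 0.920). Smc4 had 69.0 and 86.2 CPM in KO and 40.3 and 66.5 CPM in WT. Over all nuclei, 33 members were tested and 0 passed, as did 0 of 17028 genes, 0% (edgeR, with 500 lower and 512 higher at an unadjusted p under 0.05), while DESeq2 called 30 genes, none of them a member. Cenpf alone had an unadjusted p under 0.05, as 2.94% of genes did in this direction, with 3.63 and 2.42 CPM in KO and 5.18 and 5.24 CPM in WT (log2 change -0.81, SE 0.31, edgeR adjusted p = 0.736).

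Further genes of the pathway were counted in OPC from lists of the same kind. Of 50 other G2 and M phase genes, 12 were tested and 1 passed, against 0.327% of all genes tested. It was Lockd, a non-coding RNA downstream of Cdkn1b. The lists were chosen with earlier results of these data known, so this call is a description and not separate support. Lockd had 5.53 and 9.81 CPM in KO and 39.8 and 54.9 CPM in WT (log2 change -2.63, SE 0.54, edgeR adjusted p = 0.0143). The groups did not overlap for Lockd. Ncapd2, a condensin I subunit, had 27.7 and 22.1 CPM in KO and 42.1 and 83.5 CPM in WT (edgeR adjusted p = 0.141). Of 43 other S phase genes 7 were tested and 0 passed (edgeR, with 0 at an unadjusted p under 0.05, and DESeq2 0). Nasp, a histone chaperone, had 49.8 and 68.7 CPM in KO and 51.5 and 95.1 CPM in WT, and overlapped. Of 34 cell cycle regulators 12 were tested and 0 passed (DESeq2 also 0). Over whole lists, both KO libraries were below both WT libraries for 34 of the 50 G2 and M phase genes, 14 of the 43 S phase genes and 11 of the 34 regulators, against 17.4% of all genes with a UMI. Among the regulators, the lowest unadjusted p was that of Lin9, a subunit of the MuvB complex that binds the CHR element. Lin9 had 13.8 and 14.7 CPM in KO and 35.1 and 39.1 CPM in WT (log2 change -1.38, SE 0.48, edgeR adjusted p = 0.375).

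The levels of other markers, depth and mitochondrial share were read in the same OPC nuclei. Of 15 marker lists of other cell types, 5 had both KO libraries below both WT libraries, 2 had both above and 8 overlapped. The 2 higher lists were those of the granule lineage and of immature neurons. The 11 oligodendrocyte markers summed to 498 and 248 CPM in KO and 971 and 744 CPM in WT, with none at 0, and Mbp among them was called lower in KO. The nuclei with at least 5 members held that list at 503 CPM, against 670 CPM in the other OPC nuclei. The other 4 lower lists were sparse, with none of their markers at 0. The 6 blood markers summed to 24.9 and 31.9 CPM in KO and 60.8 and 60.2 CPM in WT, and the 11 mural markers to 171 and 177 CPM in KO and 290 and 216 CPM in WT. The 10 endothelial markers summed to 49.8 and 83.4 CPM in KO and 215 and 91.9 CPM in WT, and the 8 fibroblast markers to 22.1 and 7.36 CPM in KO and 53.8 and 24.3 CPM in WT. The mean mitochondrial share of OPC nuclei was 0.272% and 0.208% in KO and 0.810% and 0.263% in WT, which overlapped, and their median depth was 2189 and 2205 UMIs in KO and 2286 and 2898 UMIs in WT. The part of depth, mitochondrial share and transcripts of other cell types in the difference between genotypes was not tested beyond the thinned shares. Ago2 in OPC had 85.7 and 118 CPM in KO and 65.5 and 85.6 CPM in WT (log2 change 0.39, SE 0.26, edgeR adjusted p = 0.879), with the KO libraries above the WT libraries by a narrow margin.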

How the data were processed

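Each library was deposited by the authors as a matrix of raw UMI counts per gene and nucleus barcode, made with Cell Ranger 4.0.0 per the file headers. The submitters' processing notes also name Seurat 3.2.3 and the GRCm38 build. For intron setting, annotation release and strand use no statement was found in the labels or headers, so reads of genes that overlap on opposite strands may not be told apart.

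Barcodes needed 500 UMIs or more and a mitochondrial share below 5%. This share led to the removal of 5.64% and 6.13% of barcodes from KO and 17.8% and 8.78% from WT. Scrublet in scanpy 1.11.5 marked 1 to 6 doublets per library at its own threshold, so the highest scores up to 0.8% per 1000 barcodes were removed, 626 nuclei, leaving 15450 of 17802. Leiden clustering (igraph 0.11.9, resolution 1, 2000 variable genes, 30 components) left out the members, other cell cycle genes, Ago2, CRE, sex-linked and mitochondrially encoded genes. It gave 25 clusters, named where at least 3 markers were detected in at least 10% of nuclei at 2-fold. A cluster whose median depth was far below its library stayed unnamed. Class names are rebuilt from markers and mean X-like nuclei.

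Counts were summed per library and class and compared with the edgeR 4.0.16 quasi-likelihood test (R 4.3.3, filterByExpr, TMM, two-sided, Benjamini-Hochberg within a class, threshold 0.05). The script was tested on simulated data. The SE is the log2 change divided by the square root of F. Exact intervals are at 95% and cover counting error only. The members and gene lists were chosen with earlier results of these data known. Values per library are given for called members, for the 2 members of each role with the smallest p in OPC or the most UMIs in the granule lineage, and for members of other classes with an unadjusted p under 0.05; other members named were chosen after their values were seen. Same-numbered libraries deviated with correlations of -0.0877 to 0.0145 over the classes, so the numbers were not taken as pairs. Alternatives were RLE scaling, DESeq2 1.42.0, no filter, a replicate block, doublets kept, no mitochondrial maximum, other clusterings, and each library left out. Gene positions come from the GENCODE annotation of GRCm38 and promoters from RefSeq.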

Additional observations from a re-analysis of the deposited data

Results flagged for a closer look

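The genotype effect, KO over WT on the log2 scale, differed between OPC and the granule lineage for 3 members in the edgeR interaction test. OPC minus granule lineage was -4.03 for Mki67, which was too sparse to be tested in OPC alone, -3.09 for Prc1 and -1.62 for Diaph3. Between OPC and astrocytes it differed for 4 members, with OPC minus astrocytes at -2.41 for Smc4, -4.35 for Knl1, -4.45 for Cenpf and -3.34 for Prc1. Apart from Prc1 in astrocytes, both KO libraries were above both WT libraries in the other class, so both classes enter these differences. The OPC counts are shared by both comparisons, and 0 of these 7 differences passed without WT replicate 2. The 3 against the granule lineage also failed without KO replicate 2, and the 4 against astrocytes without KO replicate 1.

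Nuclei with at least 5 members were also seen in classes that no genotype comparison of members used. Immature neurons held 22 such nuclei among 504, and GABAergic nuclei held 8 among 1404. Glutamatergic nuclei, which no longer divide, held 10 among 1956. After thinning to 1000 UMIs, at least 5 members were seen in 17 of 468 immature neurons, 0 of 1400 GABAergic and 0 of 1953 glutamatergic nuclei. Groups of 2 libraries are too small for a test of a single deviating library.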

How the results depend on the processing

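Of the members called in OPC, 6 in the test reported, DESeq2 called 0, with 1 gene called in OPC at all. No filter on low counts gave 14 members. Keeping cell cycle genes in clustering or Leiden resolution 2, which chose the same OPC nuclei, gave 0 each. Leaving out 1 library gave 0 to 10, with 0 without WT replicate 2. RLE scaling gave 7, and doublets kept or no mitochondrial maximum 4 each. With the replicate block, though the numbers do not pair the libraries, 4 were called, and 25 genes instead of 27. No alternative called a member in the granule lineage, astrocytes, oligodendrocytes, microglia, vessels or all nuclei. Against the granule lineage, 3 differences became 7 with no filter, 8 with doublets kept, 9 with cell cycle genes in clustering and 7 at resolution 2, and 0 to 7 with a library left out. Against astrocytes, 4 became 2 with doublets kept and 0 to 3 with a library left out. The share of OPC nuclei with at least 3 members, KO minus WT, was -5.88 percentage points, -10.01 without thinning, and -9.10 to -2.67 with a library left out. In the granule lineage it was 0.351, 0.642 at 2 members, 0.717 with cell cycle genes in clustering, and 0.0988 to 0.603 with a library left out. Signs turned for Pola1 in OPC (-0.48 to 0.47 over the libraries left out, positive without WT replicate 2) and, in the granule lineage, for Smc2 (-0.14 to 0.36) and Cenpe (-0.45 to 0.80), negative without KO replicate 1, and for Cenpp (-0.23 to 0.35), negative without WT replicate 2 (-0.0053) or KO replicate 2. The cause was not tested. Leaving out single libraries for the shares was added after seeing the data. With 1 to 6 UMIs of many members per KO library, depth limits what can be detected.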

Other observations

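Immature neurons, named from Dcx, Sox11, Igfbpl1 and other early neuronal markers and led by Dlx1 and Dlx6os1, held the 38 members at a summed 456 and 666 CPM in KO and 772 and 695 CPM in WT, and both KO libraries were below both WT libraries. Nuclei with at least 5 members numbered 4 of 139 and 5 of 106 in KO and 3 of 96 and 10 of 163 in WT. After thinning to 1000 UMIs, the share with at least 3 members was 3.03% and 6.74% in KO and 3.49% and 5.59% in WT, and the groups overlapped. No genotype test was run on this class.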
